A study of Homo sapiens with 6 samples.

Results

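The genes described here belong to families that take up, activate or inactivate nucleoside analogs such as cytarabine. They are the equilibrative nucleoside transporters SLC29A1, SLC29A2, SLC29A3 and SLC29A4 and the kinases DCK and CMPK1. The others are the deaminases CDA and DCTD, the triphosphate hydrolase SAMHD1 and the nucleotidase NT5C2. The 10 genes were chosen by name, and all were found among the 18806 genes of the deposited table. Poly(A)+ RNA was sequenced from Mono-mac-6, an acute myeloid leukemia cell line that carries the MLL-AF9 fusion gene. Every library came from a single clone of that line expressing Cas9, transduced by lentivirus with a control guide (sgNS) or with either of 2 guides against the RNA helicase DDX6 (sgDDX6.1 and sgDDX6.2) and selected with blasticidin at 10 µg/ml and hygromycin B at 200 µg/ml for 1 to 2 weeks. Each of the 3 groups held 2 libraries, and the labels name no exposure to cytarabine. The labels place harvest 8 days after infection, which the longer selection would pass, so the day of harvest is uncertain. The labels do not say that replicates were separate cultures, so p-values measure the spread between these libraries, which may be technical.

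Cytarabine is a cytidine analog and a backbone of acute myeloid leukemia treatment. It enters mainly through SLC29A1, is phosphorylated first by DCK, the rate-limiting step, and then by CMPK1 and nucleoside diphosphate kinases to the triphosphate that is built into DNA. CDA deaminates the free nucleoside and DCTD its monophosphate, SAMHD1 hydrolyses the triphosphate, and nucleotidases such as NT5C2 remove the phosphate of nucleoside monophosphates. DDX6 is an RNA helicase of processing bodies that acts in mRNA repression and decay.

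Levels are in TPM, a gene's length-scaled share of the transcripts of a library, and can therefore be set side by side between genes. Differences are those of log2(TPM + 1), so that for a gene with few transcripts they come out smaller than the true fold. DDX6, the target, was at 102 and 99.5 TPM with sgNS, 54.4 and 52.0 with sgDDX6.1, and 52.3 and 53.5 with sgDDX6.2, a difference of -0.91 over both guides (SE 0.04, adjusted p = 4.61e-09). The libraries held 10794 to 11007 genes at 1 TPM or more. All 8 monocytic markers reached 1 TPM in some library, although CD14 (0.37 to 1.36) and CSF1R (at most 4.5) were low. The summed level of the 8, mostly LYZ, was 9922 to 10413 in sgNS and 14213 to 15439 with a DDX6 guide. The markers did not move together. LYZ, CD68 and CSF1R were higher in every DDX6 library than in both sgNS libraries, CD14, ITGAM, FCGR1A and MPO were lower, and CD33 overlapped. Of 22 markers of other cell types 9 were at 0 in every library and 4 reached 1 TPM (CD79A, KRT18, KRT8 and PECAM1). The summed level of the 22 was 88.1 to 90.2 in sgNS, 148 to 152 with sgDDX6.1 and 212 to 222 with sgDDX6.2, most of it PECAM1, which monocytes also make. The part of these marker levels in the results was not tested.

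Against sgNS, the cytarabine genes moved in both directions, and mostly by little. Over both guides, SLC29A1, SLC29A2, SLC29A4, SAMHD1 and NT5C2 rose, DCK and DCTD fell, and SLC29A3 and CMPK1 did not pass the test. That is 5 higher and 2 lower of 9 tested, or 77.8%, where 66.7% of all 11151 genes tested were called, 33.8% as higher and 32.9% as lower. CDA, the tenth gene, was too low to be tested. In bulk RNA, fewer cells that make a transcript and less of it per cell cannot be told apart. With so large a share of genes called, the count says little of these genes. The median difference of the 9 was 0.15 and their median size 0.21, against 0.00 and 0.23 over all genes tested. SLC29A4 was the exception in size, at 1.74, and without it the median was 0.11 and the median size 0.20. With sgDDX6.1 alone 4 of the 9 rose and 2 fell, where 61.6% of all genes tested were called (31.8% higher and 29.7% lower). With sgDDX6.2 alone also 4 rose and 2 fell, where 64.2% were called (31.5% higher and 32.7% lower). DCK and DCTD fell, and SLC29A4 and SAMHD1 rose, with each guide, while SLC29A1 and SLC29A2 were called higher with sgDDX6.1 and SLC29A3 and NT5C2 with sgDDX6.2. Both guides were compared with the same sgNS libraries.

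**Figure D1:**
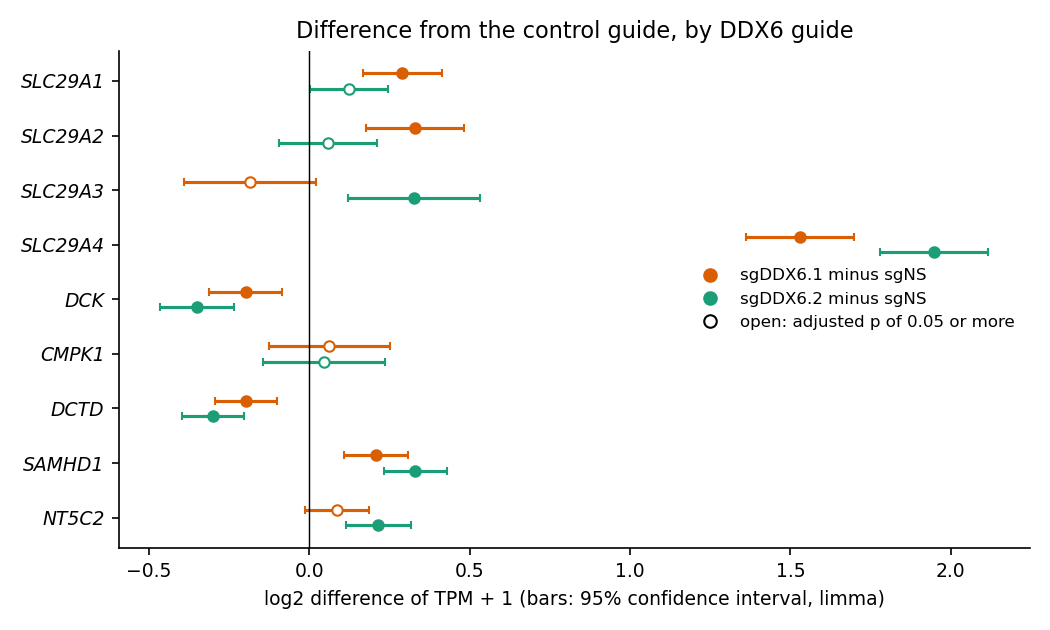
Log2(TPM + 1) difference from sgNS of the 9 tested cytarabine genes on the x axis, for sgDDX6.1 (orange) and sgDDX6.2 (green), with 95% confidence intervals from limma as bars and open points where the adjusted p was 0.05 or more. SLC29A4 stands at 1.53 and 1.95, and the other genes lie between -0.35 and 0.33.

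The order of the levels differed between groups in ranks 2, 4, 5 and 6, while CMPK1 was at rank 3 in each. In sgNS, SAMHD1 was highest at a mean of 140 ± 3.54 TPM (SD, n = 2), followed by DCTD at 112 ± 2.28. CMPK1, NT5C2, DCK and SLC29A1 followed between 94.6 and 83.2, each overlapping the next, and then SLC29A2 at 27.2, SLC29A4 at 5.48, SLC29A3 at 2.82 and CDA at 0.270, with no overlap between neighbours. SAMHD1 was also first, and SLC29A2, SLC29A4, SLC29A3 and CDA were also last, in that order, with either DDX6 guide. DCTD moved from rank 2 in sgNS to 4 with sgDDX6.1 and 5 with sgDDX6.2, and DCK from 5 to 6 with both. With sgDDX6.2, NT5C2 stood second at 103 TPM, and DCK, at 68.6, lay below SLC29A1 and DCTD without overlap.

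**Figure D2:**
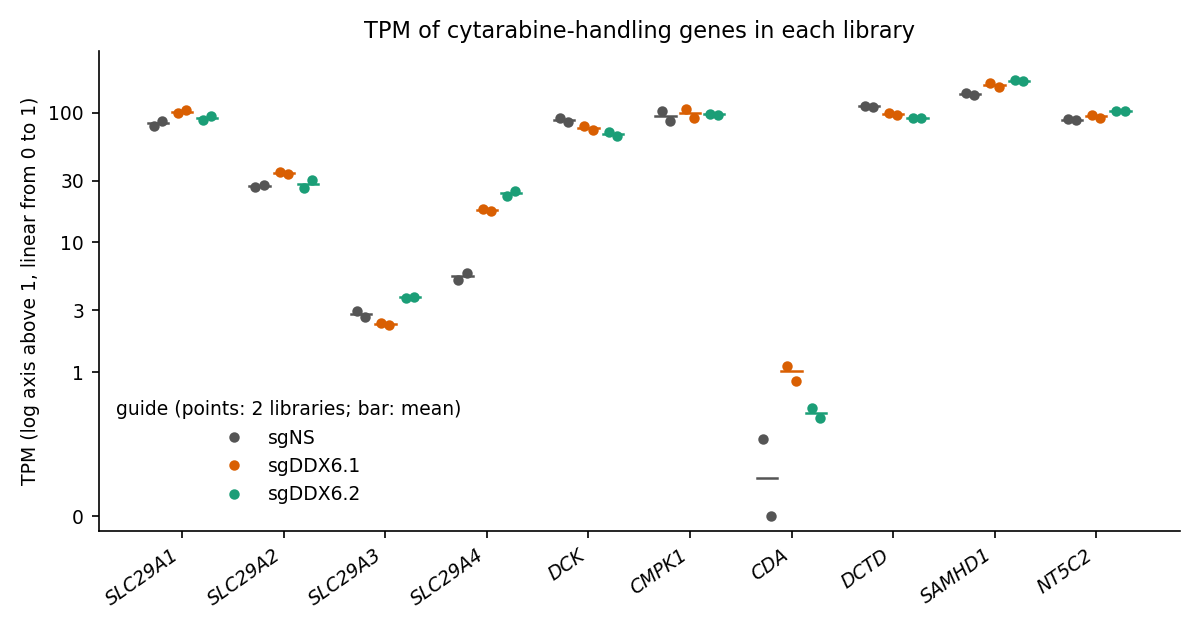
TPM of the 10 cytarabine genes in each library, on a shared axis that is logarithmic above 1 TPM and linear from 0 to 1, with a point per library and the group mean as a bar. The sgNS points lie below all sgDDX6 points for SLC29A1, SLC29A4, CDA, SAMHD1 and NT5C2 and above them for DCK and DCTD.

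Both sgNS libraries lay to one side of all 4 DDX6 libraries for 7 of the 10 genes (63.4% of all genes tested). In 5 of them sgNS was the lower side (31.5%) and in 2 the higher side (31.9%). The 5 include CDA, which was not tested, whereas the percentages cover only the genes tested. SLC29A2, SLC29A3 and CMPK1 overlapped.

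The transporter SLC29A4 changed most. This gene encodes the plasma membrane monoamine transporter, which carries monoamines and, in acid medium, adenosine, and is the most distant member of the family. Cytarabine uptake was not measured here, so the change of SLC29A4 cannot be read as a change of cytarabine entry. The gene lies on chromosome 7 at 5274369 to 5306870, plus strand, in GENCODE release 29 (GRCh38). Its level was 5.16 and 5.80 TPM in sgNS, 18.0 and 17.4 with sgDDX6.1, and 22.9 and 25.1 with sgDDX6.2. The groups did not overlap, and the sgDDX6.2 libraries were the highest. The mean TPM was 3.23-fold that of sgNS with sgDDX6.1 and 4.38-fold with sgDDX6.2. The difference over both guides was 1.74 (95% CI 1.59 to 1.89, adjusted p = 1.16e-09), and it ranked 9 among the increases of all genes tested, of which 0.798% had a difference of this size or more in either direction. Between alternatives its difference over both guides ran from 1.29 with a pseudocount of 5 to 1.89 with one of 0.1, and it stayed called in each. The annotation names 2 pseudogenes of SLC29A4, and 1.39% of its exon bases lie opposite exons of TNRC18, which was at 61.2 to 86.1 TPM. Whether reads were counted by strand is not given in the sources used here.

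SLC29A1, the main cytarabine carrier (chromosome 6, 44219505 to 44234151, plus strand), rose modestly. It was at 79.4 and 87.0 TPM in sgNS, 99.5 and 104 with sgDDX6.1, and 87.8 and 93.8 with sgDDX6.2. Every DDX6 library was above both sgNS libraries, although the lowest sgDDX6.2 library exceeded the highest sgNS library by less than the spread within either group. The difference was 0.21 over both guides (adjusted p = 0.00242), 0.29 with sgDDX6.1 (adjusted p = 0.000773) and 0.12 with sgDDX6.2, which missed the threshold (95% CI 0.003 to 0.25, adjusted p = 0.0678). A size of 0.21 or more was found in 54.5% of all genes tested. The sgDDX6.2 value was 0.19 without sgNS replicate 2 (adjusted p = 0.0148) and 0.04 with the trend on transcript GC content removed (adjusted p = 0.417), an alternative chosen after seeing the data. With the 4 DDX6 libraries as a single group, the difference over both guides was not called (adjusted p = 0.0613).

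SLC29A2, a second carrier of the plasma membrane (chromosome 11, 66362521 to 66372214, minus strand), rose with sgDDX6.1 and did not pass the test with sgDDX6.2. It was at 26.6 and 27.8 TPM in sgNS, 34.9 and 34.0 with sgDDX6.1, and 26.4 and 30.5 with sgDDX6.2. The sgDDX6.1 libraries stood above all others and the sgDDX6.2 libraries enclosed the sgNS pair. The difference was 0.33 with sgDDX6.1 (adjusted p = 0.00151) and 0.06 with sgDDX6.2 (95% CI -0.09 to 0.21, adjusted p = 0.480), and sgDDX6.2 was below sgDDX6.1 by a difference of -0.27 (adjusted p = 0.0113). Over both guides it was 0.19 (adjusted p = 0.0135). That call was lost without sgNS replicate 1 (adjusted p = 0.0749), without sgDDX6.2 replicate 2 (adjusted p = 0.0559), with no filter (adjusted p = 0.0533) and with the DDX6 libraries as a single group (adjusted p = 0.181).

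SLC29A3, a transporter of lysosomal and mitochondrial membranes (chromosome 10, 71319258 to 71381423, plus strand), was low and differed between the guides. It was at 2.95 and 2.68 TPM in sgNS, 2.41 and 2.30 with sgDDX6.1, and 3.74 and 3.83 with sgDDX6.2. The sgNS pair lay between the DDX6 guides, with no overlap on either side. The difference was -0.18 with sgDDX6.1 (95% CI -0.39 to 0.02, adjusted p = 0.107) and 0.33 with sgDDX6.2 (adjusted p = 0.00917), which set the guides apart by 0.51 (adjusted p = 0.00176). The sgDDX6.2 call was lost without sgNS replicate 2 (0.28, adjusted p = 0.0705) or without sgDDX6.2 replicate 2 (0.31, adjusted p = 0.0522). Over both guides the difference was 0.07 (95% CI -0.11 to 0.25, adjusted p = 0.454).

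Because the transporters changed unequally, their makeup within a library shifted. The TPM of the 4 genes summed to 114 and 123 in sgNS, 155 and 158 with sgDDX6.1, and 141 and 153 with sgDDX6.2. SLC29A4 made up 4.52% and 4.71% of that sum in sgNS, 11.6% and 11.0% with sgDDX6.1, and 16.3% and 16.4% with sgDDX6.2. SLC29A1 made up 69.6% and 70.6% in sgNS, 64.3% and 66.0% with sgDDX6.1, and 62.4% and 61.2% with sgDDX6.2, and thus remained the most abundant of the family in every library. The TPM ratio of SLC29A4 to SLC29A2 was 0.194 and 0.209 in sgNS, 0.516 and 0.512 with sgDDX6.1, and 0.868 and 0.824 with sgDDX6.2. In no library did SLC29A4 exceed SLC29A2.

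**Figure D3:**
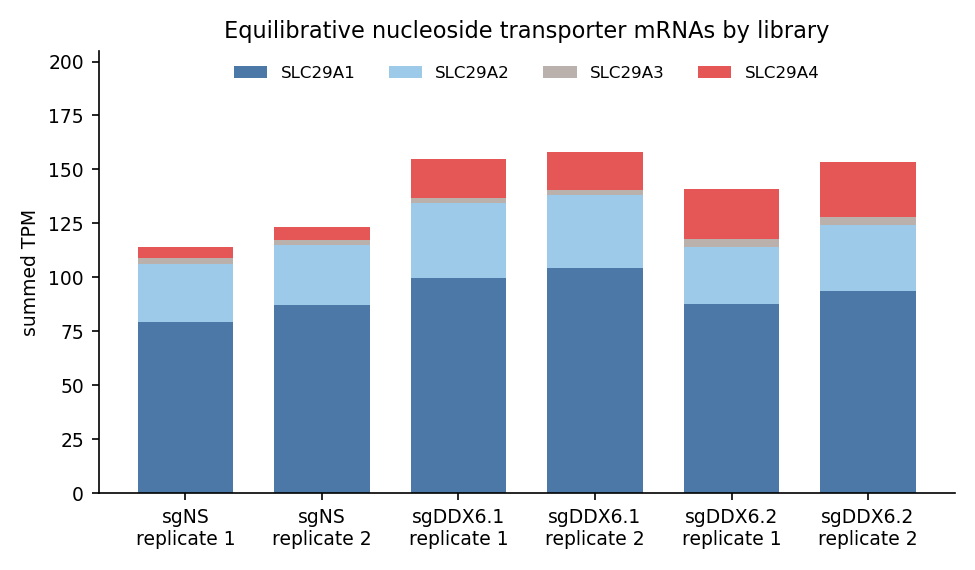
Summed TPM of SLC29A1, SLC29A2, SLC29A3 and SLC29A4 on the y axis, as a stacked bar for each of the 6 libraries. The SLC29A4 part is 4.52% to 4.71% of the bar in sgNS and 11.0% to 16.4% in the 4 DDX6 libraries, and SLC29A1 is the largest part in all 6.

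DCK, deoxycytidine kinase, which makes cytarabine monophosphate, fell with each guide. The gene lies on chromosome 4 at 70992538 to 71030914, plus strand. Its level was 90.3 and 85.0 TPM in sgNS, 78.4 and 74.1 with sgDDX6.1, and 70.5 and 66.7 with sgDDX6.2. Each group lay below the one before, with no overlap. Mean TPM changed by -13.0% with sgDDX6.1 and -21.8% with sgDDX6.2. The difference over both guides was -0.27 (95% CI -0.37 to -0.17, adjusted p = 0.000225), a size that 43.2% of all genes tested reached. With sgDDX6.1 it was -0.20 (adjusted p = 0.00616), a call lost without sgDDX6.1 replicate 2 (-0.16, adjusted p = 0.0515), and with sgDDX6.2 it was -0.35 (adjusted p = 0.000116). With the trend on transcript GC content removed, the value over both guides was -0.13 (adjusted p = 0.00264), that with sgDDX6.2 was -0.18 (adjusted p = 0.000875), and that with sgDDX6.1 was -0.075 and not called (adjusted p = 0.0636). The neighbour MOB1B, at 24.7 to 41.4 TPM, shares 6.17% of the DCK exon bases on the same strand.

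CMPK1, the kinase that makes the diphosphate (chromosome 1, 47333797 to 47378839, plus strand), showed no change that exceeded its spread. Its level was 103 and 86.1 TPM in sgNS, 108 and 90.2 with sgDDX6.1, and 98.3 and 96.4 with sgDDX6.2. Replicates within sgNS and within sgDDX6.1 differed more than any 2 group means, and all groups overlapped. The difference over both guides was 0.05 (95% CI -0.11 to 0.22, adjusted p = 0.539). This gene depended on single libraries: without sgNS replicate 1 the difference was 0.18 (adjusted p = 0.0316), without sgNS replicate 2 it was -0.08 (adjusted p = 0.366), and without sgDDX6.1 replicate 1 it was -0.01 (adjusted p = 0.928).

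Of the deaminases, DCTD fell and CDA was close to the limit of the table. DCTD, which deaminates deoxycytidylate and cytarabine monophosphate (chromosome 4, 182890060 to 182917936, minus strand), was at 113 and 110 TPM in sgNS, 99.2 and 95.3 with sgDDX6.1, and 90.5 and 90.6 with sgDDX6.2. The groups descended in the same order as for DCK and did not overlap. The difference was -0.25 over both guides (95% CI -0.33 to -0.17, adjusted p = 0.000121), -0.20 with sgDDX6.1 (adjusted p = 0.0021) and -0.30 with sgDDX6.2 (adjusted p = 9.63e-05). It stayed called against sgNS in every alternative run.

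CDA, cytidine deaminase (chromosome 1, 20588948 to 20618908, plus strand), was listed at 0.54 and 0 TPM in sgNS, 1.12 and 0.94 with sgDDX6.1, and 0.75 and 0.68 with sgDDX6.2. Only 1 library reached 1 TPM, so the gene did not pass the filter. All 4 DDX6 libraries were above both sgNS libraries. In the fit with no filter, over 15661 genes, the difference was 0.59 over both guides (SE 0.17, adjusted p = 0.0354) and 0.71 with sgDDX6.1 (adjusted p = 0.0340), and with sgDDX6.2 it was 0.47 (adjusted p = 0.109). The number of reads behind these values is unknown.

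SAMHD1 rose with each guide. This deoxynucleoside triphosphate hydrolase, abundant in myeloid cells, removes the active form of cytarabine (chromosome 20, 36889773 to 36951901, minus strand). Its level was 143 and 138 TPM in sgNS, 168 and 157 with sgDDX6.1, and 177 and 177 with sgDDX6.2. The groups ascended without overlap, and the spread was widest with sgDDX6.1. Mean TPM was 15.7% higher with sgDDX6.1 and 26.0% higher with sgDDX6.2. The difference was 0.27 over both guides (95% CI 0.18 to 0.36, adjusted p = 7.95e-05), a size that 43.9% of all genes tested reached, 0.21 with sgDDX6.1 (adjusted p = 0.00177) and 0.33 with sgDDX6.2 (adjusted p = 5.55e-05), and each of the 3 stayed called in every alternative run. TLDC2, at 2.51 to 3.56 TPM, lies opposite 10.3% of the SAMHD1 exon bases.

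NT5C2, a cytosolic nucleotidase that prefers purine monophosphates (chromosome 10, 103088017 to 103193306, minus strand), rose by less. It was at 89.5 and 87.2 TPM in sgNS, 96.6 and 91.3 with sgDDX6.1, and 102 and 103 with sgDDX6.2. The groups ascended without overlap. The difference was 0.15 over both guides (adjusted p = 0.00518), 0.22 with sgDDX6.2 (adjusted p = 0.00146) and 0.09 with sgDDX6.1 (95% CI -0.01 to 0.19, adjusted p = 0.118). With the DDX6 libraries as a single group, the value over both guides was not called (adjusted p = 0.0845). The sgDDX6.1 value was called without sgDDX6.1 replicate 2 (0.13, adjusted p = 0.0442) and with the trend on transcript GC content removed (0.16, adjusted p = 0.000846). CNNM2, at 5.38 to 5.88 TPM, lies opposite 36.7% of the NT5C2 exon bases.

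Ratios within a library do not depend on the total to which TPM are scaled, and here are a description with no test. The ratio of DCK to SAMHD1 was 0.631 and 0.616 in sgNS, 0.465 and 0.473 with sgDDX6.1, and 0.398 and 0.378 with sgDDX6.2. That is a change of the mean log2 ratio of -0.41 and -0.69. DCK to NT5C2 was 1.01 and 0.975 in sgNS, 0.811 and 0.812 with sgDDX6.1, and 0.690 and 0.645 with sgDDX6.2, so that the kinase and the nucleotidase were at a similar level only in sgNS. DCK to DCTD, in contrast, overlapped between groups, at 0.773 to 0.797 in sgNS, 0.778 to 0.790 with sgDDX6.1 and 0.735 to 0.780 with sgDDX6.2. SLC29A1 to DCK was 0.880 and 1.02 in sgNS, 1.27 and 1.41 with sgDDX6.1, and 1.24 and 1.41 with sgDDX6.2. The carrier was thus above the kinase in every DDX6 library and in 1 of the 2 sgNS libraries. For DCK to CDA no ratio exists in sgNS replicate 2, where CDA is listed at 0.

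**Figure D4:**
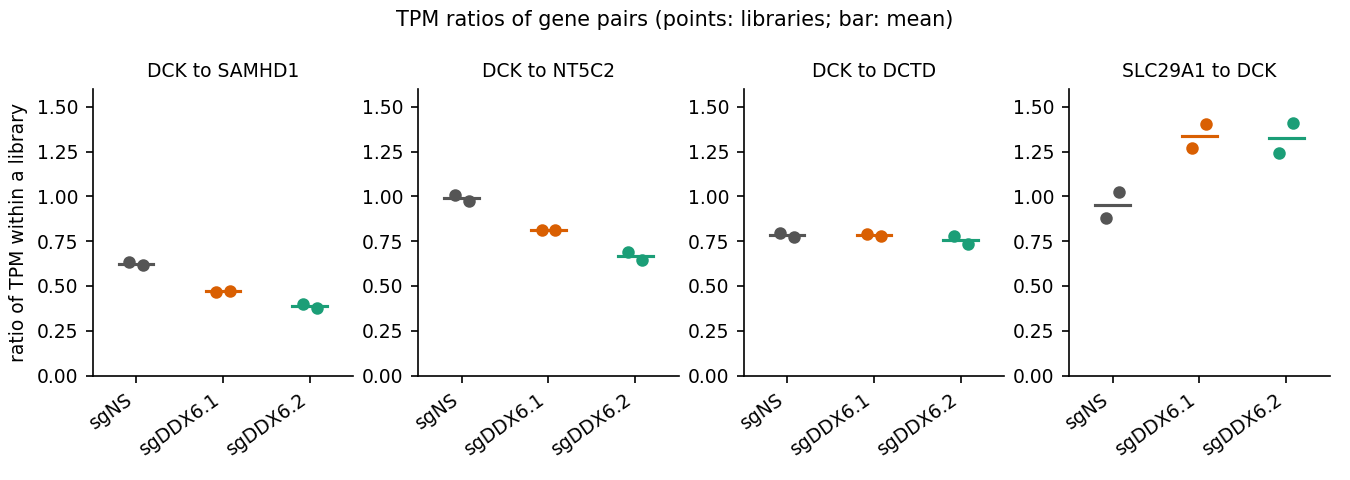
TPM ratios within each library for DCK to SAMHD1, DCK to NT5C2, DCK to DCTD and SLC29A1 to DCK, on a linear axis from 0, with a point per library and the group mean as a bar. The ratios to SAMHD1 and NT5C2 step down from sgNS to sgDDX6.1 to sgDDX6.2, DCK to DCTD stays between 0.735 and 0.797, and SLC29A1 to DCK is higher in all 4 DDX6 libraries than in sgNS.

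DDX6 mRNA was at a mean of 53.2 ± 1.73 TPM with sgDDX6.1 and 52.9 ± 0.799 with sgDDX6.2 (SD, n = 2 each), a difference between guides of -0.01 (95% CI -0.11 to 0.10, adjusted p = 0.918). These RNA data do not show how much DDX6 protein remained with either guide. Of the 9 cytarabine genes tested, 6 differed between the guides, as did 35.6% of all genes tested. SLC29A3 (0.51), SLC29A4 (0.42) and NT5C2 (0.13) were higher with sgDDX6.2, where 17.0% of all genes tested were called higher, and SLC29A1 (-0.17), SLC29A2 (-0.27) and DCK (-0.15) were lower, where 18.6% were. The adjusted p-values ran from 0.00176 for SLC29A3 to 0.0468 for NT5C2. DCTD differed by -0.10 (95% CI -0.20 to -0.01, adjusted p = 0.0906) and SAMHD1 by 0.12 (95% CI 0.02 to 0.22, adjusted p = 0.0538). For SLC29A4, DCK and NT5C2 the guide with the further value from sgNS was sgDDX6.2, and for SLC29A1 and SLC29A2 it was sgDDX6.1. The differences of SLC29A3 and SLC29A4 stayed called in every alternative run, and the others depended on the setting and on single libraries. With no filter, SLC29A1, SLC29A2, DCK and NT5C2 were not called (adjusted p = 0.109, 0.0580, 0.0944 and 0.0664), and without limma's trend SLC29A1, DCK and NT5C2 were not (adjusted p = 0.100, 0.0990 and 0.105). SLC29A1 and DCK also lost their calls with quantile normalization (adjusted p = 0.0991 and 0.105) and with median centring (adjusted p = 0.0758 and 0.0669). SLC29A1 lost its call without sgDDX6.1 replicate 1, without sgDDX6.1 replicate 2 or without sgDDX6.2 replicate 1 (adjusted p = 0.0722 to 0.265). SLC29A2 lost it without replicate 1 of either guide (adjusted p = 0.0778 and 0.152). DCK lost it without sgDDX6.1 replicate 1 or either sgDDX6.2 library (adjusted p = 0.0717 to 0.291), and NT5C2 without sgDDX6.1 replicate 2 or either sgDDX6.2 library (adjusted p = 0.165 to 0.221). SAMHD1 became called in 10 of the 17 alternatives, among them the GC trend removed (adjusted p = 0.00724), median centring (adjusted p = 0.0219) and quantile normalization (adjusted p = 0.0287), and without either sgNS library or without sgDDX6.1 replicate 1 (adjusted p = 0.0272 to 0.0480). The median size of the difference between guides was 0.15 for the 9 genes and 0.13 over all genes tested.

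The coding sequences of the cytarabine genes span much of the range of base composition. DCK and SAMHD1 have few codons that end in G or C, 39.2% and 39.9%, which placed them at percentiles 16.8 and 18.1 of the genes tested, while SLC29A4, at 87.2%, was at percentile 97.1. SLC29A2 (83.3%) and SLC29A3 (78.9%) were also high, SLC29A1 (71.5%) and CDA (71.2%) less so, and DCTD (55.6%), CMPK1 (50.9%) and NT5C2 (47.2%) lay below the median of 58.6%. The middle 50 codons of 3 coding sequences, taken from GENCODE release 29 (GRCh38) in the order of reading, show this difference at the last base of the codon. Capitals mark G or C at the last base of a codon, which 42 of the 50 codons had in SLC29A4 (codons 241 to 290), 19 in SAMHD1 (codons 289 to 338) and 16 in DCK (codons 106 to 155).
SLC29A4: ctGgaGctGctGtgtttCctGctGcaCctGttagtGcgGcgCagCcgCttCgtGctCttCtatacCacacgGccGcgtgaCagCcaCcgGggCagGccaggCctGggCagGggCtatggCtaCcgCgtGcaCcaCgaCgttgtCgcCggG
SAMHD1: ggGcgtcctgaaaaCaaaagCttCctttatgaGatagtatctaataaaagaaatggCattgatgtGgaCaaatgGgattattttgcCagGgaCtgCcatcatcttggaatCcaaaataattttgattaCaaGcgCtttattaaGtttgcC
DCK: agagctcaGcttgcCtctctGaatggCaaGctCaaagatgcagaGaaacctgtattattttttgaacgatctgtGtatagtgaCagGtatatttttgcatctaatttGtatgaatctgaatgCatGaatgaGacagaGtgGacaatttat
SAMHD1 and DCK were alike in this share. Over the whole transcript the GC content was 46.0% for SAMHD1 (percentile 39.5) and 38.8% for DCK (percentile 9.78), and over the bases after the stop codon 45.9% and 28.7%.

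Over all genes, composition went with the change. Among the third of genes with the fewest codons ending in G or C, 22.2% were called higher and 41.2% lower over both guides, and among the third with the most, 44.6% and 25.1%. Spearman's rho between the GC content of the whole transcript and the difference was 0.24 over both guides, 0.18 with sgDDX6.1 and 0.27 with sgDDX6.2, across 10846 genes, which share libraries and are not independent replicates. In an alternative chosen after seeing the data, the trend on transcript GC content was removed from each library before the test. SLC29A4 was then at 1.67, SAMHD1 at 0.31, NT5C2 at 0.23, SLC29A2 at 0.12 and DCTD at -0.26 over both guides, all called. The difference of DCK, whose transcript is low in GC, was smaller in size, as given with its values. CMPK1, whose transcript is the poorest in GC of the 10 at 37.8%, was then called higher at 0.22 (adjusted p = 0.00414). With sgDDX6.2, SLC29A2 turned from 0.06 to -0.06 (adjusted p = 0.357). The part of base composition in these results beyond this correction was not tested.

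The promoters of the same 3 genes are shown so that genes that rose and a gene that fell can be compared at their starts. They are the 250 bases before the RefSeq start (GRCh38.p14), read along the gene's strand, with the letters of matched motifs in capitals.
SLC29A4 chr7:5282693-5282942, plus strand: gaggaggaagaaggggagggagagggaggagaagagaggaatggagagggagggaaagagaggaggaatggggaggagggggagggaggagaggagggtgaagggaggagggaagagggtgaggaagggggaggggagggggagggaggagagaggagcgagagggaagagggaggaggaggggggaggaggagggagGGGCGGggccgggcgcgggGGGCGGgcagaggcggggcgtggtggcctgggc
SAMHD1 chr20:36951709-36951958, minus strand: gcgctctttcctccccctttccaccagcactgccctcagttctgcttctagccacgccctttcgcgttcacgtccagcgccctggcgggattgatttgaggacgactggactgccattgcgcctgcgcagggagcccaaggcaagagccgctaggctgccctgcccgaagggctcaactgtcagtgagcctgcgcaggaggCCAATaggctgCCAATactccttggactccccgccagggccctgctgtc
DCK chr4:70993399-70993648, plus strand: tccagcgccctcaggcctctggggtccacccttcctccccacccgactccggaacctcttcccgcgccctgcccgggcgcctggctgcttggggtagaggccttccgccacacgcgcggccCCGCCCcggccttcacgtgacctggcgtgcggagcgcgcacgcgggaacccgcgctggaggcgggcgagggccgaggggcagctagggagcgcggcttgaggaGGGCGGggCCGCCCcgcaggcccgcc
RefSeq had an entry for 9 of the 10 genes. Its starts of SLC29A4, DCK and SAMHD1 all lie within the longer genes that GENCODE annotates. The windows of SLC29A4 and DCK thus lie wholly, and that of SAMHD1 mostly, inside the annotated gene. Motifs were searched on both strands, and their background is the share of 35116 promoters of this length that held them. The GC box, a binding motif of SP family factors spelled GGGCGG, was in 42.6% of these promoters. The CCAAT box, bound by the factor NF-Y, was found in 32.0% of these windows. A TATA box, which positions the polymerase at many regulated genes and was searched as TATAAA, occurred in 10.7%. The cAMP response element (TGACGTCA) was in 1.65%, an E2F site (TTTCGCGC) in 0.439%, the core of the interferon-stimulated response element in 3.02% and a C/EBP-ATF element (TGATGNAA) in 3.14%. The SLC29A4 window held 2 GC boxes, that of DCK held 3, and that of SAMHD1 held 2 CCAAT boxes, at -49 to -45 and -38 to -34 from the start, none of them overlapping. The GC content was 70.4% for SLC29A4, 78% for DCK and 64% for SAMHD1, all above the median of 58%. A rising and a falling gene thus shared the GC box, and a match of letters is no evidence of binding.

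The genes most like DCK and SAMHD1 over the 6 libraries were found by the root mean square distance between log2(TPM + 1) profiles, each centred on its mean. For DCK they were LSM6 (0.011), CKAP2 (0.0178) and NRIP1 (0.0203), and for SAMHD1 they were TAOK3 (0.0118), ERC1 (0.0166) and BMPR2 (0.0178). These profiles are common: 1706 of the 11151 genes tested lay within 0.1 of DCK and 1359 within 0.1 of SAMHD1.

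Of 39 further genes of nucleoside analog handling, 31 were tested. Over both guides 14 were called higher and 8 lower, or 71.0% (background 66.7%), with a median difference of 0.11. The concentrative transporters SLC28A1, SLC28A2 and SLC28A3, an active route of nucleoside uptake, were at most 0.03 TPM in any library.

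Among the efflux pumps, 3 of 3 tested were called higher over both guides (33.8% of all genes tested were) and 2 of 3 with sgDDX6.2 (31.5%). With only 3 genes, these counts say little. ABCC11 and ABCG2 were too low to test. ABCC10, which exports nucleoside analogs, was at 13.5 and 14.7 TPM in sgNS, 21.2 and 22.8 with sgDDX6.1, and 21.9 and 23.5 with sgDDX6.2. Its DDX6 libraries all lay above sgNS, and the difference was 0.63 (SE 0.06, adjusted p = 3.22e-06). ABCC5, a pump for cyclic and analog nucleotides, rose by 0.33 (adjusted p = 0.00221). ABCC4, also a nucleotide pump, rose by 0.17 (adjusted p = 0.0105), a call lost without sgNS replicate 2 (adjusted p = 0.0829) or with a single DDX6 group (adjusted p = 0.206), and differed between guides, at 0.31 with sgDDX6.1 (adjusted p = 0.000726) and 0.03 with sgDDX6.2 (adjusted p = 0.630).

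Of 12 other kinases 6 rose and 2 fell over both guides, a share called of 66.7%, the same as over all genes tested. NME4, a mitochondrial nucleoside diphosphate kinase, was at 127 and 133 TPM in sgNS, 185 and 192 with sgDDX6.1, and 207 and 230 with sgDDX6.2, a difference of 0.64 (adjusted p = 2.17e-07). NME1, which like NME4 makes triphosphates, rose by 0.52 (adjusted p = 4.94e-08), although its reads can be split with near-identical NME2, so this value is uncertain. TK1, the cytosolic thymidine kinase, rose by 0.35 (adjusted p = 2.18e-05). TK2, its mitochondrial counterpart, which also phosphorylates deoxycytidine, fell by 0.51 on the log2 scale (adjusted p = 7.57e-05).

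Of the 5 nucleotidases tested besides NT5C2, 4 were called lower over both guides and 0 higher (32.9% of all genes tested were called lower), and NT5C3B, at 0.02, did not pass the test. With sgDDX6.2 the count was 3 lower and 1 higher, the latter NT5E, where 32.7% of all genes tested were called lower and 31.5% higher. NT5C3A, which prefers pyrimidine monophosphates, was at 83.6 and 79.9 TPM in sgNS, 57.9 and 57.4 with sgDDX6.1, and 47.5 and 42.4 with sgDDX6.2. Its groups descended without overlap, and the difference was -0.67 (SE 0.05, adjusted p = 3.39e-07). NT5M, the mitochondrial deoxynucleotidase, was low, at 3.59 to 4.01 TPM in sgNS and 1.07 to 1.48 in the DDX6 libraries, and fell by 1.08 on the log2 scale (adjusted p = 2.80e-06). NT5C fell by 0.29 (adjusted p = 0.00101). NT5E, the surface enzyme CD73, fell with sgDDX6.1 (-0.80, adjusted p = 4.29e-06) and rose with sgDDX6.2 (0.22, adjusted p = 0.0288), the latter a call lost without any one of the sgNS or sgDDX6.2 libraries (adjusted p = 0.0720 to 0.135), so its value over both guides, -0.29 (adjusted p = 0.00236), describes neither guide.

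Phosphorylases and pool enzymes were mixed. PNP, purine nucleoside phosphorylase, rose by 0.35 (adjusted p = 2.52e-05), and UPP1, uridine phosphorylase, fell by 0.31 (adjusted p = 0.00483). TYMP was at 0.14 over both guides (adjusted p = 0.0852), and at 0.18 without sgDDX6.2 replicate 2. With sgDDX6.1 TYMP was called higher (0.23, adjusted p = 0.0244), a call lost with no filter (adjusted p = 0.0767). With sgDDX6.2 it was at 0.05 (adjusted p = 0.562). Of 8 deoxynucleotide pool enzymes 4 rose and 1 fell, or 62.5% called against 66.7% of all genes tested. DCTPP1, which hydrolyses deoxycytidine triphosphate and its analogs, rose by 0.42 (adjusted p = 3.39e-06). RRM2, the small subunit of ribonucleotide reductase, was at 231 and 223 TPM in sgNS, 202 and 194 with sgDDX6.1, and 161 and 159 with sgDDX6.2, a difference of -0.35 (adjusted p = 4.27e-06) in which the groups descended without overlap. TYMS, thymidylate synthase, rose by 0.20 (adjusted p = 4.93e-05), although not with quantile normalization (0.05, adjusted p = 0.0785). CTPS1, which makes cytidine triphosphate, rose by 0.16 over both guides (adjusted p = 0.00153). It was called with sgDDX6.1 (0.25, adjusted p = 0.000234) and not with sgDDX6.2 (0.07, adjusted p = 0.125).

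**Figure D5:**
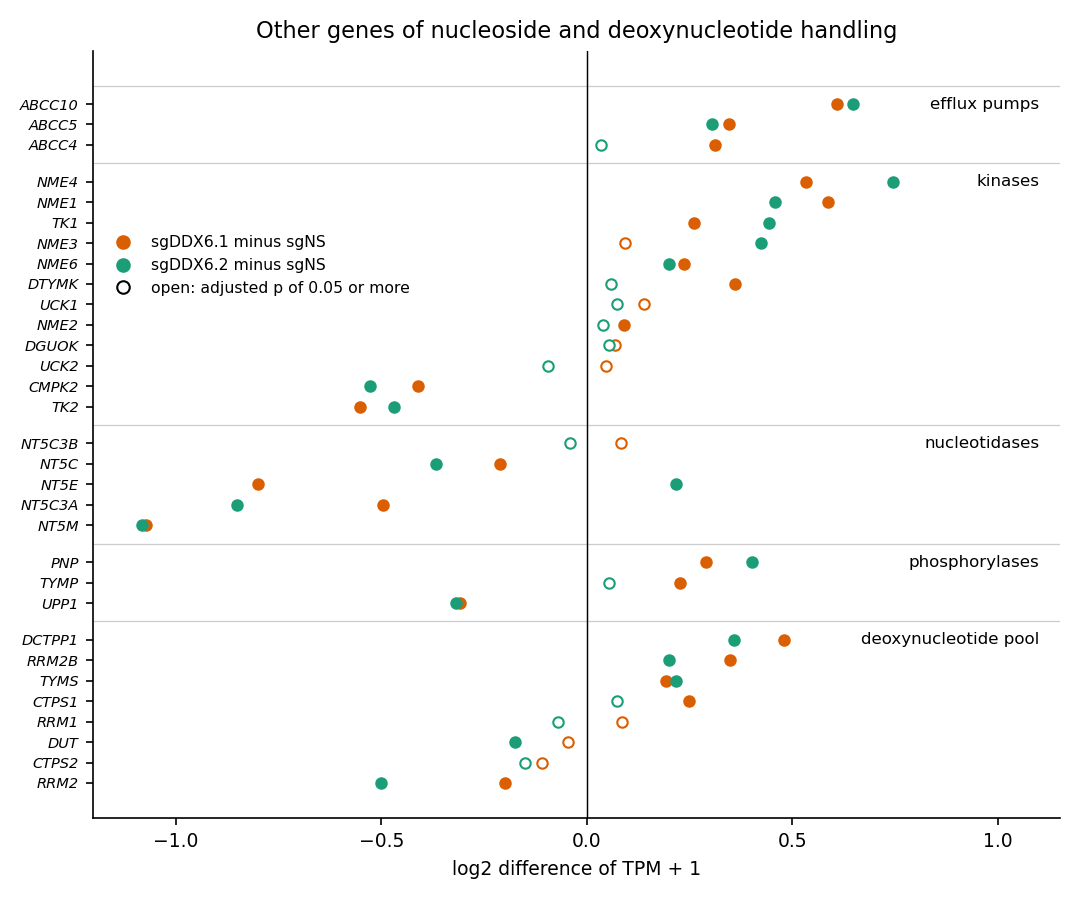
Log2(TPM + 1) difference from sgNS on the x axis for the 31 tested genes of the wider nucleoside analog list, grouped by role, for sgDDX6.1 (orange) and sgDDX6.2 (green), with open points where the adjusted p was 0.05 or more. ABCC10 lies at 0.61 and 0.65, and NT5E has a point on either side of 0, at -0.80 and 0.22.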

How the data were processed

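TPM for 18806 genes in 6 libraries were deposited in a single table, that is, estimates of transcript number divided by length and brought to the same total in each library. RSEM 1.2.31 and GRCh38 were used, per the submitters' processing notes. Not given in the sources used here are aligner, annotation, strandedness and guide sequences. Since TPM are shares, a gene can fall because abundant ones rise, and the depth is unknown. The 11151 genes that reached 1 TPM in 2 libraries were kept. Each group's mean of log2(TPM + 1) was estimated in 1 model over 3 groups with limma 3.58.1 in R 4.3.3 (variance trend, 3 residual degrees of freedom), two-sided, with Benjamini-Hochberg adjustment over all genes within a contrast and a threshold of 0.05. The script was tested on simulated data. The cytarabine genes, the wider list and the alternatives were chosen with earlier results of these data known. Named were DDX6, all 10 cytarabine genes, up to 4 genes with the lowest adjusted p from each group of the wider list, and the 3 nearest profiles to DCK and SAMHD1. Transcript properties come from 1 coding transcript per gene in GENCODE release 29, found for 97.3% of tested genes, and promoters from RefSeq (GRCh38.p14). Replicates correlated at 0.998 in each group.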

Additional observations from a re-analysis of the deposited data

Results flagged for a closer look

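Both DDX6 guides were compared with the same control, and the difference between them was tested with limma as sgDDX6.2 minus sgDDX6.1 on the log2(TPM + 1) scale. Of the cytarabine genes, 6 differed: SLC29A3 by 0.51, SLC29A4 by 0.42 and NT5C2 by 0.13 were higher with sgDDX6.2, and SLC29A2 by -0.27, SLC29A1 by -0.17 and DCK by -0.15 were lower. Of the 18 named genes of the wider list, 8 differed: NT5E by 1.02, NME4 by 0.21 and TK1 by 0.18 were higher with sgDDX6.2, and NT5C3A by -0.36, RRM2 by -0.30, ABCC4 by -0.28, CTPS1 by -0.17 and NME1 by -0.13 were lower. These stand among the 35.6% of all genes tested that differed between the guides. The 18 were picked by the lowest adjusted p over both guides, so their count is one of a selected set. Of all 31 tested genes of the wider list, 12 differed between the guides (38.7%). Those not named above were NME3 (0.33), DTYMK (-0.30), RRM1 (-0.16) and UCK2 (-0.14). Without sgDDX6.2 replicate 2, the calls of CTPS1, NME1, NME4 and TK1 were lost (adjusted p = 0.0834, 0.117, 0.131 and 0.123). Those of NME4 and TK1 were also lost without sgDDX6.1 replicate 1 (adjusted p = 0.0845 and 0.123), and that of NME1 without sgDDX6.1 replicate 2 (adjusted p = 0.0786) or sgDDX6.2 replicate 1 (adjusted p = 0.0755). The setting mattered as well. With no filter, NME4 and TK1 were not called (adjusted p = 0.0567 and 0.0702). Without limma's trend, NME1, NME4 and TK1 were not (adjusted p = 0.0962, 0.0503 and 0.0694), nor was NME1 with median centring (adjusted p = 0.0823). Among the named genes that differed, SLC29A3 and NT5E had opposite signs against sgNS with the 2 guides.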

How the results depend on the processing

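Against sgNS, the calls of SLC29A4, DCTD and SAMHD1 over both guides and with each guide, and of DCK over both guides and with sgDDX6.2, were kept under every alternative run. With the 4 DDX6 libraries as a single group, 2 cytarabine genes were called higher over both guides instead of 5. Over all genes tested, 2570 were then called higher instead of 3764. With the GC trend removed, 1 cytarabine gene was called lower with sgDDX6.1 instead of 2, and 3173 of all genes instead of 3317. SLC29A2 with sgDDX6.2 then turned to -0.057, and CMPK1 between guides to 0.030, which it also did with quantile normalization (0.0030) and median centring (0.0028). Between guides, 3 cytarabine genes were called lower in the report, where 18.6% of all genes tested were. That number was 0 with no filter and 1 with quantile normalization, with median centring or without limma's trend. With a TPM filter of 5, which tests fewer genes, 5 genes of the wider list were lower in each contrast with sgNS, and between guides the wider list had 2 higher with no filter or without the trend, and 5 lower without the trend. Leaving out a library gave CMPK1 differences of -0.076 to 0.18 over both guides, -0.067 to 0.19 with sgDDX6.1, -0.084 to 0.18 with sgDDX6.2 and -0.14 to 0.11 between guides, and SLC29A2 with sgDDX6.2 -0.043 to 0.16. It left 1 to 2 cytarabine genes lower with sgDDX6.1 and, between guides, 2252 to 4121 genes called (3971 with all), 1172 to 1962 higher, 971 to 2159 lower (the low ends without sgDDX6.1 replicate 1 or either sgDDX6.2 library), 0 to 3 cytarabine genes lower, and 2 to 4 higher and 4 to 9 lower of the wider list. Apart from the construction named, the cause of these changes was not tested. Replicate numbers are shared between groups, but the labels do not tie them to a batch. Differences of replicate 1 minus replicate 2 correlated at 0.262 (sgNS with sgDDX6.1), 0.0977 (sgNS with sgDDX6.2) and 0.0399 (between guides). Whether same-numbered libraries shared a batch was not tested. SLC29A3 with sgDDX6.1 was called without the trend (adjusted p = 0.0254), and ABCC4, CTPS1 and NT5E over both guides were not called with a single DDX6 group (adjusted p = 0.206, 0.0935 and 0.486). With a replicate block, 7859 genes were called over both guides against 7434 without it, 7402 with sgDDX6.1, 7650 with sgDDX6.2 and 4809 between guides, and SLC29A1 with sgDDX6.2, and DCTD and SAMHD1 between guides, became called. Fitting only the groups compared could not be done for both guides together, which uses every group. The depth is unknown, which limits CDA and SLC29A3 most.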
